A study of Mus musculus with 14 samples.

Results

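Eph receptors and their ephrin ligands were followed across 6 groups of mouse intestinal RNA. The set holds 7 genes, chosen by symbol for their role in placing cells along the crypt: the receptors Ephb2, Ephb3, Ephb4 and Epha2 and the ligands Efna1, Efnb1 and Efnb2. The choice was made with earlier results of these data known. All 7 of these genes were found among the 36536 genes counted in each of 14 libraries. The other 15 Eph receptor and ephrin genes of the mouse served as their nearest relatives.

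Eph receptors are tyrosine kinases that meet ephrins on a neighbouring cell, and contact usually makes the 2 cells repel each other or part. In the intestine EphB receptors are high at the crypt base, where Wnt signalling is active, and B-type ephrins are high in the differentiated cells above. This opposed gradient keeps progenitors and Paneth cells low in the crypt and lets differentiating cells move up.

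GFP libraries were made from live, 7AAD-negative cells sorted for GFP from the crypts of Atoh1GFP/GFP mice, 3 from colon and 3 from ileum. These mice carry a working fusion of ATOH1 and GFP on both alleles, and no age is given for them. ATOH1 is the transcription factor that goblet, Paneth and enteroendocrine cells need. KO libraries were made from whole crypts of Atoh1lox/lox;VilCreERT2 mice, 2 per tissue. WT libraries were made from whole crypts of their Atoh1lox/WT;VilCreERT2 littermates, 2 per tissue, so the controls carry 1 floxed allele and the same Cre. Crypt donors were 6 to 8 weeks old. The villin promoter directs this inducible Cre to the intestinal epithelium, and how it was induced is not given in the sources used here. GFP cells differ from crypts in genotype, in sorting and in cell type at once, and these cannot be told apart. The labels do not say that libraries came from separate animals, so p-values measure the spread between these libraries, which may be technical.

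Sorted cell libraries held 7478418 to 12991891 gene counts, and crypt libraries 8848660 to 10870416. Mitochondrial ribosomal RNA took 30.02 to 44.9% of the counts of sorted cells, against 0.136 to 0.219% of those of crypts. Levels are therefore given as CPM, gene counts scaled to a common total with TMM factors, which keeps a few dominant genes from setting the scale. Atoh1 itself stood at 295, 231 and 264 CPM in colon GFP libraries 1 to 3, at 5.20 and 5.90 CPM in colon KO and at 62.6 and 44.7 CPM in colon WT. In ileum it stood at 195, 323 and 296 CPM in GFP libraries 1 to 3, at 1.02 and 0.53 CPM in KO and at 41.0 and 39.5 CPM in WT, so every library matched its label. All 8 epithelial genes checked (Epcam, keratins and junction genes among them) were counted in every library, and they summed to 3063 to 5246 CPM in the sorted and 7275 to 9227 CPM in the crypt libraries. Summed goblet and Paneth cell genes (17 genes) were 68147 to 215788 CPM in sorted cells, 1304 to 2273 CPM in KO crypts and 10894 to 49423 CPM in WT crypts. WT libraries 2 exceeded WT libraries 1 for these genes in colon (22453 against 10894 CPM) and in ileum (49423 against 21408 CPM). Sorted libraries also held more dissociation and immediate early genes, 983 to 2188 CPM over 16 genes against 352 to 719 CPM in crypt libraries, and their uniquely placed reads fell outside genes in 24.9 to 52.3% of cases, against 9.30 to 13.2% in crypt libraries. The highest of these shares, 52.3%, belonged to ileum GFP 1, and the other sorted libraries lay between 24.9 and 31.9%. These measures move with every contrast of GFP cells with crypts below, and their part in the results was not tested. Between bulk libraries, fewer cells of a type and less RNA per cell cannot be told apart.

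The promoters of 4 members are shown because their transcripts set the main patterns below: the paralogs Ephb2 and Ephb3, which parted ways, and Epha2 and Efnb1, which were lowest in sorted cells. Each is the RefSeq window from 250 bases before to 50 bases after the gene's start in build GRCm38.p6, printed 5′ to 3′ on the gene's strand. Ephb2 lies at chr4:136835963-136836262 (minus strand), Ephb3 at chr16:21204545-21204844 (plus strand), Epha2 at chr4:141300971-141301270 (plus strand) and Efnb1 at chrX:99135811-99136110 (plus strand). Capitals mark matches, on either strand, to CTTTGA, the core read by the TCF and LEF factors of Wnt signalling, and to CAGCTG and CAGATG, the E-boxes bound by basic helix-loop-helix factors such as ATOH1.
Ephb2: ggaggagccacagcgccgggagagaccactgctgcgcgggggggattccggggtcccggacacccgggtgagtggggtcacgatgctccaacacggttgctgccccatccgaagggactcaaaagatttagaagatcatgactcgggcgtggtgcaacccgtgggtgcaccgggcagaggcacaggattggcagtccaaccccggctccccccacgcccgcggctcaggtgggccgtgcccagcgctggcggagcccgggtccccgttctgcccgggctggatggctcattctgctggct
Ephb3: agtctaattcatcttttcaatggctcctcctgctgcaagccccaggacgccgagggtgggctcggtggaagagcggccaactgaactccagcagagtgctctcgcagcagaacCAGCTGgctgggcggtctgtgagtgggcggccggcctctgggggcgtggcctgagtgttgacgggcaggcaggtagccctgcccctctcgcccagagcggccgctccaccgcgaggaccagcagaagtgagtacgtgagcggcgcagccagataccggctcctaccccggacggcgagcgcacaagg
Epha2: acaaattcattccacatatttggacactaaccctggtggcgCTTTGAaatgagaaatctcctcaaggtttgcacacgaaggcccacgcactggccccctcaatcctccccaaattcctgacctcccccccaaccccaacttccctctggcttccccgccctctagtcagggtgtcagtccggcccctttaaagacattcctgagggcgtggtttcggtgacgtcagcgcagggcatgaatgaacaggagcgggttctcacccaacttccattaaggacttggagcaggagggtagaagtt
Efnb1: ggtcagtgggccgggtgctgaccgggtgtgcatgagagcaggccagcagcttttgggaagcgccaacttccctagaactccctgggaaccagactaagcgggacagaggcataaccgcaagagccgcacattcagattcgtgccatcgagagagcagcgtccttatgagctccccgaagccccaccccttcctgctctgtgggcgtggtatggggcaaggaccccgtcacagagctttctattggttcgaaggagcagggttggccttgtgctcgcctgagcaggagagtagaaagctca
Within these windows the Ephb3 promoter held 1 match, CAGCTG at base 114, and the Epha2 promoter held 1 match, CTTTGA at base 42. No match to these letters was found in the other windows listed for the members. Of 32851 RefSeq promoter windows of the same length, 16% held CTTTGA, 16.3% held CAGCTG and 17.2% held CAGATG, so a match of this kind was common. CAGCTG is its own reverse complement, and no 2 matches overlapped.

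On a per-length scale (mean CPM per kilobase of exon), Ephb4 and Efnb1 gave the highest levels in crypts. In colon Ephb4 averaged 23.3 in GFP cells, 30.6 in KO crypts and 27.0 in WT crypts, and Efnb1 averaged 5.06, 37.3 and 32.1 in the same order. Efna1 followed with 14.3, 25.1 and 19.9, then Efnb2 with 6.02, 14.9 and 13.2. Ephb2 gave 8.94, 9.10 and 8.77 CPM per kilobase in those colon groups, Ephb3 gave 6.49, 3.05 and 6.02, and Epha2 gave 0.73, 8.41 and 5.08. Among colon GFP means Ephb4 was thus highest and Epha2 lowest, whereas in colon KO crypts Efnb1 was highest and Ephb3 lowest. In ileum the lowest mean belonged to Epha2 in GFP cells (0.81), to Ephb3 in KO crypts (2.58) and to Ephb3 in WT crypts (7.06). The 7 genes summed to 288 to 390 CPM in the sorted and 518 to 634 CPM in the crypt libraries.

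**Figure D1:**
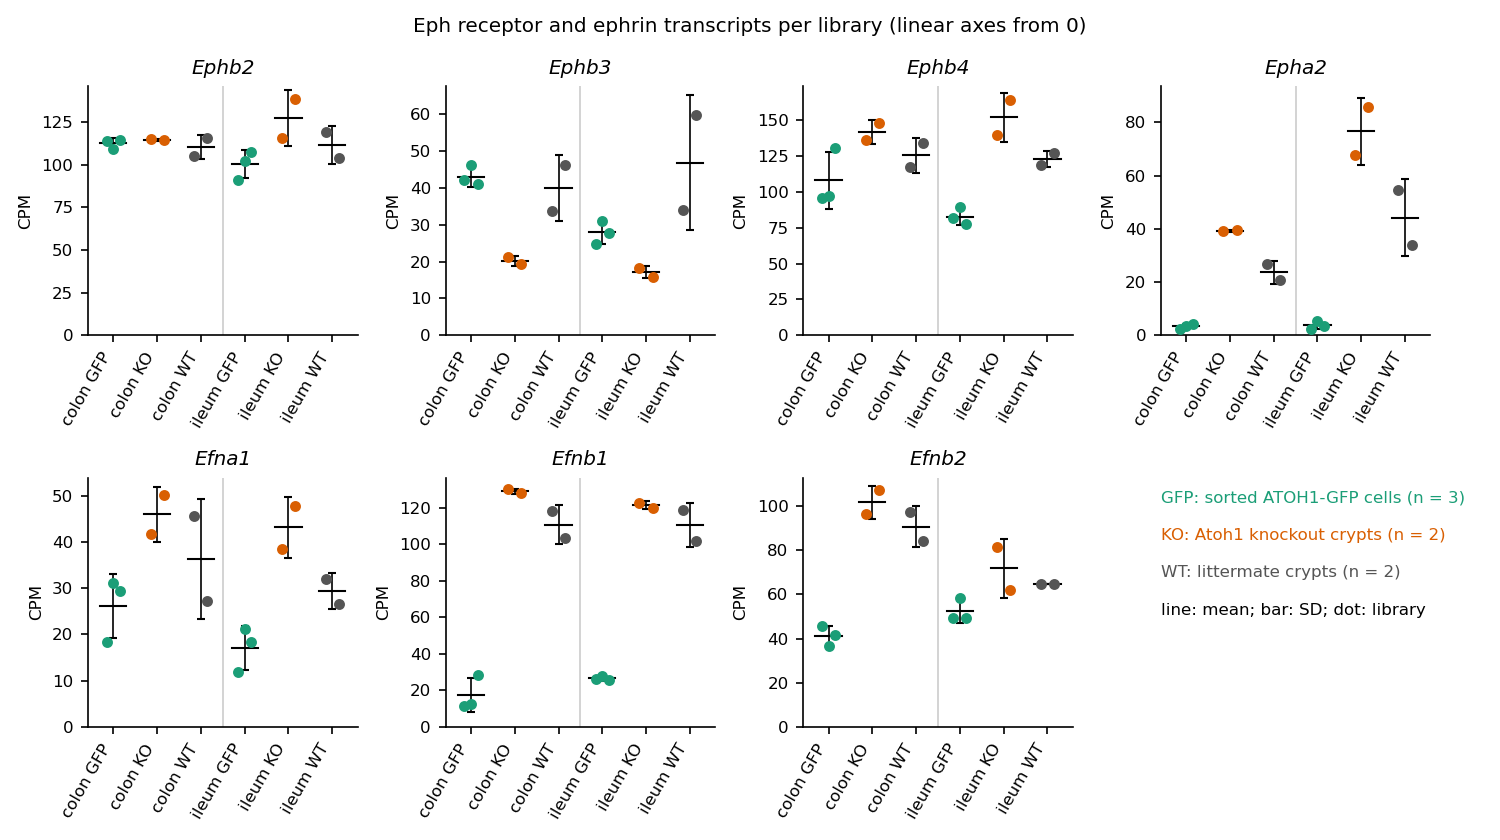
CPM of the 7 genes in every library, by group, with GFP cells, KO crypts and WT crypts of colon left of the grey line and those of ileum right of it; dots are libraries, lines are means and bars are SD. Ephb2 stayed between 91.3 and 139 CPM in all libraries, Ephb3 was lowest in the KO crypts, and Epha2 and Efnb1 were far lower in sorted cells than in crypts.

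Ephb2, the EphB receptor most used to mark the crypt base, was nearly level across groups. It had 114, 109 and 115 CPM in colon GFP libraries, 115 and 114 CPM in colon KO and 105 and 116 CPM in colon WT. Ileum gave 91.3, 102 and 108 CPM in GFP cells, 116 and 139 CPM in KO and 119 and 104 CPM in WT. No group stood apart from its tissue's WT libraries. The 95% interval of its log2 fold change ran from -0.27 to 0.33 for colon GFP against colon WT and from -0.45 to 0.15 for ileum GFP against ileum WT. For KO against WT it ran from -0.24 to 0.33 in colon and from -0.06 to 0.51 in ileum. The ileal sorted libraries did lie below both ileum KO libraries, at a log2 difference of -0.34 (SE 0.14, adjusted p = 0.0513, edgeR). That difference was called with library sizes that leave out genes above 1% of counts (-0.41, adjusted p = 0.0212), with the DESeq2 Wald test (-0.34, 0.0232) and after removal of a trend with GC content and length (-0.35, 0.0252). The sign in colon GFP cells flipped with scaling (0.03 as fitted, -0.02 with library sizes that leave out genes above 1% of counts), and in the contrast of colon WT with ileum WT it flipped around a value of -0.00.

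Ephb3, the receptor whose loss in mice lets Paneth cells leave the crypt base, was lower in KO crypts. It had 21.2 and 19.3 CPM in colon KO, against 33.7 and 46.3 CPM in colon WT. In ileum it had 18.3 and 15.9 CPM in KO, against 34.0 and 59.8 CPM in WT. All 4 KO libraries thus lay below all 4 WT libraries, a separation in this direction that 3.52% of the 14415 genes tested shared. Ephb3 fell in KO crypts over both tissues by 1.21 on the log2 scale (SE 0.21), a mean of 18.7 CPM in KO and 43.4 CPM in WT, with an adjusted p of 0.0330 by edgeR's quasi-likelihood test with Benjamini-Hochberg adjustment. That test and the separation count colon and ileum libraries as independent. Same-numbered colon and ileum libraries deviated together (correlation 0.36 in KO and 0.32 in WT), and the labels do not say what the numbers share. If 1 mouse gave both, these results rest on fewer mice than libraries, which was not tested. The same limit holds for every value over both tissues below. Ephb3 was the 1 member of 7 called in KO against WT over both tissues, where 2.47% of all genes were called.

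That call was lost in the same edgeR test without colon KO 1 (adjusted p = 0.0917), colon KO 2 (0.101), colon WT 2 (0.124), ileum KO 1 (0.110) or ileum KO 2 (0.132), and with no filter on low counts (0.0528), while the log2 fold change stayed between -1.34 and -0.97 when single libraries were left out. Within one tissue no member was called by edgeR. In colon, where 0.153% of genes were called, Ephb3 changed by -0.99 (log2, SE 0.29, adjusted p = 0.403, edgeR), and 2 members had an unadjusted p under 0.05 (7.69% of all genes did). The DESeq2 Wald test called 0 members in colon, and the share of all genes it called is not given here. In ileum, where 1.22% were called, Ephb3 changed by -1.42 (SE 0.29, adjusted p = 0.0881) and 3 members had an unadjusted p under 0.05 (13.4% of all genes did). DESeq2 called Ephb3 there (adjusted p = 0.000227), and so did edgeR without ileum WT 1 (-1.78, 0.00137) and with all 14 libraries in the fit (0.00565). Summed goblet and Paneth genes were, like Ephb3, lowest in KO crypts, higher in WT 1 and highest in WT 2 of each tissue. Within colon KO, close sums of 1870 and 1940 CPM of these genes went with 21.2 and 19.3 CPM of Ephb3. Ileum GFP cells had 103853 to 215788 CPM of these genes and less Ephb3 than ileum WT. The call of that ileal fall was lost without ileum WT 2 and with a GC and length trend removed. The part of the goblet and Paneth genes in the Ephb3 result was not tested.

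Sorted GFP cells held more Ephb3 than KO crypts. In colon they had 42.1, 46.2 and 40.9 CPM, and in ileum 24.9, 31.1 and 27.8 CPM. Every sorted library lay above both KO libraries of its tissue. Against KO the log2 fold change was 1.09 (SE 0.23, adjusted p = 0.00135, edgeR) in colon and 0.71 (SE 0.23, adjusted p = 0.0168) in ileum. The ileal call was lost without ileum GFP 2 (adjusted p = 0.0524), ileum KO 1 (0.0554) or ileum KO 2 (0.135). Against WT crypts the colon value was 0.11 (SE 0.22, adjusted p = 0.712), and the libraries overlapped. Without colon WT 1 it turned to -0.12, and with a GC and length trend removed it was called at 0.62 (adjusted p = 0.0468). In ileum Ephb3 fell in GFP cells against WT by 0.74 on the log2 scale (SE 0.22, adjusted p = 0.0108, edgeR). This rested on ileum WT 2, the library with 59.8 CPM: without it the change was -0.29 (adjusted p = 0.318), and after removal of the GC and length trend it was -0.24 (adjusted p = 0.412). In a fit of ileum GFP and ileum WT alone the adjusted p was 0.0501. The tissue difference in the Ephb3 effect against WT was 0.85 (SE 0.31, adjusted p = 0.177, edgeR), past the threshold without ileum WT 1 (1.20, adjusted p = 0.0368).

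A ratio within each library does not depend on scaling between libraries, but a trend with GC content and length can still move it. For Ephb3 that trend averaged -0.31 on the log2 scale in sorted and 0.21 in crypt libraries. For Ephb2 it averaged -0.01 and -0.02, so ratios of GFP cells set beside those of crypts carry this shift. Per 100 Ephb2 counts, Ephb3 gave 36.9, 42.2 and 35.7 counts in colon GFP cells, 18.5 and 16.9 in colon KO and 31.9 and 40.0 in colon WT. In ileum it gave 27.2, 30.3 and 25.8 counts in GFP cells, 15.8 and 11.5 in KO and 28.5 and 57.6 in WT. KO crypts had the lowest ratios in both tissues, and the GFP and WT ranges overlapped in colon and in ileum.

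**Figure D2:**
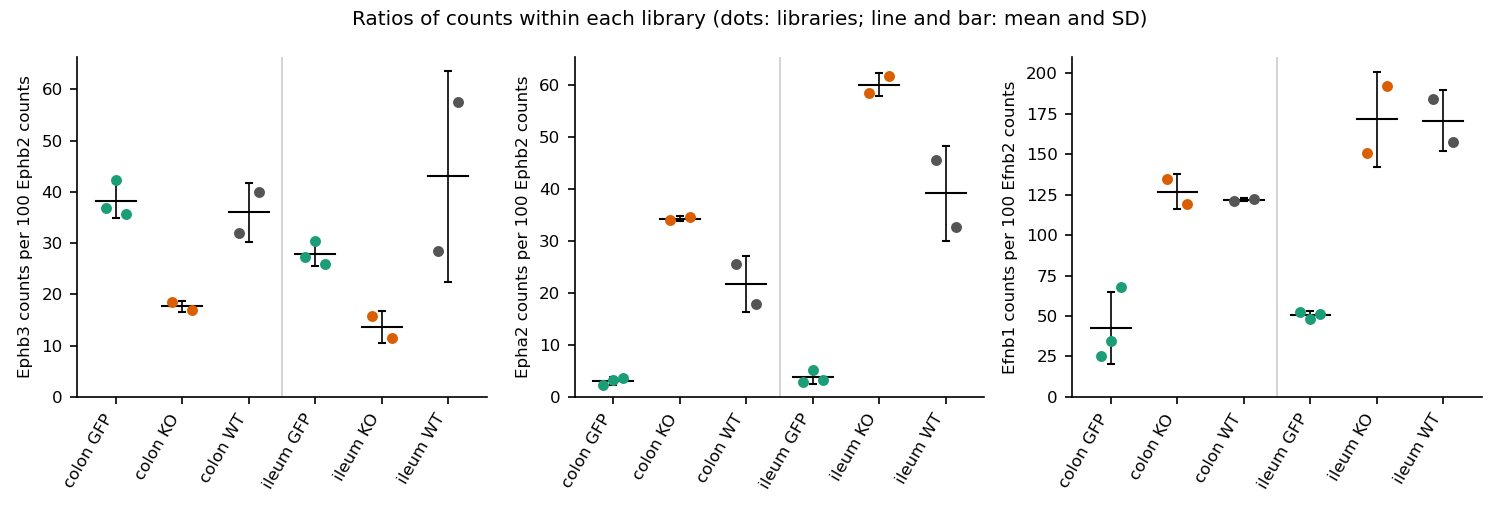
Ratios of counts within each library for Ephb3 to Ephb2, Epha2 to Ephb2 and Efnb1 to Efnb2, as counts of the first per 100 counts of the second, with dots for libraries and lines and bars for mean and SD. KO crypts had the lowest Ephb3 ratios, and GFP cells had the lowest Epha2 and Efnb1 ratios in both tissues.

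Ephb4, the receptor best known for ephrin-B2 binding between veins and arteries, was the most abundant receptor per length. Colon GFP cells had 95.8, 97.1 and 131 CPM, against 136 and 148 CPM in colon KO and 117 and 134 CPM in colon WT. Ileum GFP cells had 81.6, 89.4 and 77.4 CPM, against 139.7 and 164 CPM in ileum KO and 119 and 127 CPM in ileum WT. All ileal sorted libraries were below all ileal crypt libraries, while colon GFP 3 lay within the range of colon WT. In ileum Ephb4 fell in GFP cells by 0.57 on the log2 scale against WT (SE 0.16, adjusted p = 0.00954, edgeR) and by 0.88 against KO (SE 0.16, adjusted p = 0.000439). In colon the values were -0.22 against WT (adjusted p = 0.288) and -0.40 against KO (adjusted p = 0.0572), the second of which the DESeq2 Wald test called (-0.39, adjusted p = 0.0475). Without colon GFP 3 both colon contrasts were called (-0.38, adjusted p = 0.0422, and -0.55, adjusted p = 0.00605), and the ileal call against WT was lost without ileum WT 2 (adjusted p = 0.0620).

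The direction for Ephb4 depended on the GC and length trend. With that trend removed it was higher in colon GFP cells than in WT (0.38, adjusted p = 0.0366, edgeR), 0.09 in ileum against WT (adjusted p = 0.587), 0.19 in colon against KO (adjusted p = 0.269) and -0.19 in ileum against KO (adjusted p = 0.253). At 58.4% GC it had the highest GC content of the 7 genes. Endothelial genes, which mark the vessel cells where Ephb4 and Efnb2 are best known, summed over 14 genes to 7.32 to 14.9 CPM in the sorted and to 7.30 to 13.8 CPM in the crypt libraries. Of them, Cldn5 averaged 0 in colon GFP, ileum GFP and ileum KO and 0.22 CPM or less in the other groups, and Vwf averaged 2.49 to 5.01 CPM. By tissue, the 14 genes summed to 7.87 to 14.9 CPM in colon GFP cells and 8.61 to 9.87 CPM in colon WT. In ileum they summed to 7.32 to 8.42 CPM in GFP cells and 12.7 to 13.8 CPM in WT. Against WT by edgeR, 0 of 7 tested fell in colon GFP cells and 3 in ileum (Pecam1, Tie1 and Plvap). Of all genes, 23.6% fell in colon and 28.1% in ileum. Stroma and muscle genes were lower in sorted cells, with 5.10 to 15.4 CPM over 12 genes in the sorted and 46.6 to 156 CPM in the crypt libraries. Of these 12, 7 fell in colon GFP cells and 11 in ileum GFP cells against WT by edgeR. Col1a2, a collagen gene of fibroblasts, averaged 0.97 CPM in colon GFP and 1.07 CPM in ileum GFP, against 21.2 CPM in colon WT and 15.1 CPM in ileum WT. The part of these cells in the falls of sorted cells was not tested. One end of Ephb4, 33 exon bases or 0.711% of its exons, overlaps Zan on the other strand, and no other member overlaps a gene.

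Epha2, a receptor for ephrin-A1 at contacts between epithelial cells, was the member that differed most between sorted cells and crypts. Colon GFP cells had 2.55, 3.49 and 4.18 CPM, against 39.1 and 39.5 CPM in colon KO and 26.8 and 20.6 CPM in colon WT. Ileum GFP cells had 2.55, 5.26 and 3.57 CPM, against 67.6 and 85.6 CPM in ileum KO and 54.5 and 34.0 CPM in ileum WT. Sorted libraries rested on 15 to 43 counts and crypt libraries on 302 to 1139 counts, and the ranges were far apart. Against WT Epha2 fell in GFP cells by 2.81 on the log2 scale in colon (SE 0.29, adjusted p = 6.07e-06, edgeR) and by 3.51 in ileum (SE 0.28, adjusted p = 5.91e-07), which is 7.04-fold and 11.4-fold lower. Against KO it fell by 3.54 in colon (SE 0.28, adjusted p = 5.91e-07) and by 4.30 in ileum (SE 0.28, adjusted p = 6.53e-08). The difference between colon and ileum in the effect against WT was 0.70 (SE 0.41, adjusted p = 0.411).

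In crypts Epha2 was higher in KO than in WT without passing the test. The log2 difference was 0.72 in colon (SE 0.24, adjusted p = 0.501, edgeR), 0.83 in ileum (SE 0.24, adjusted p = 0.199) and 0.78 over both tissues (SE 0.16, adjusted p = 0.0512), with means of 58.0 CPM in KO and 34.0 CPM in WT over both. Both KO libraries exceeded both WT libraries within each tissue, which is weak evidence with 2 libraries per group. The share of all genes separated in this way is not given here. Over both tissues the KO and WT ranges of Epha2 overlapped. The value over both tissues passed with DESeq2 size factors (adjusted p = 0.0498), with no filter on low counts (0.0393), with the GC and length trend removed (0.0321), in the DESeq2 Wald test (0.000514) and without ileum WT 1 (0.0386) or ileum WT 2 (0.0252). In ileum alone it passed with the DESeq2 Wald test (0.82, adjusted p = 0.0487) and in edgeR without ileum WT 1 (1.20, adjusted p = 0.00794).

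Surface and villus absorptive genes were also lower in sorted cells than in crypts. Their summed level over 20 genes was 3568 to 4137 CPM in colon GFP cells, 10177 and 11484 CPM in colon KO and 10256 and 7674 CPM in colon WT. In ileum it was 3881 to 6097 CPM in GFP cells, 24043 and 21902 CPM in KO and 18455 and 13009 CPM in WT. Within groups the order varied: the WT library with the lower sum had less Epha2 in both tissues, but ileum KO 2 had the lower sum and more Epha2 than ileum KO 1. Colon GFP 1 had the higher sum and less Epha2 than colon GFP 2, on 24 against 28 Epha2 counts, so little can be read from that pair. None of these 20 genes was called between KO and WT in either tissue, where 0.153% of all genes were called in colon and 1.22% in ileum. Their median log2 fold change was 0.24 in colon and 0.35 in ileum, beside 0.01 over all genes in each tissue. The part of these absorptive genes in the Epha2 result was not tested. Per 100 Ephb2 counts, Epha2 gave 2.24 to 3.65 counts in colon GFP cells, 34.0 and 34.6 in colon KO and 25.5 and 17.8 in colon WT. In ileum the ratio was 2.80 to 5.14 in GFP cells, 58.4 and 61.7 in KO and 45.6 and 32.7 in WT.

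**Figure D3:**
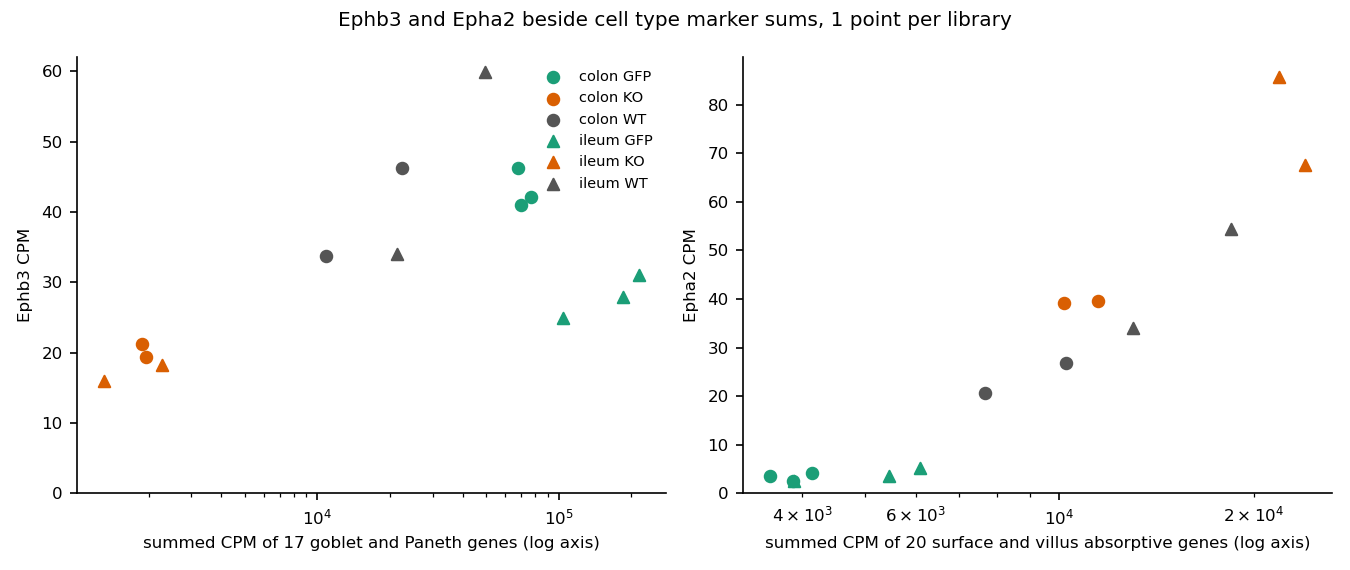
Each point is 1 library; the left panel plots Ephb3 CPM against the summed CPM of 17 goblet and Paneth genes and the right panel plots Epha2 CPM against the summed CPM of 20 surface and villus absorptive genes, both on log horizontal axes. KO crypts lie low on both axes for Ephb3, and sorted cells lie low on both axes for Epha2.

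Efna1, the membrane-tethered ligand of EphA receptors such as Epha2, was lower in sorted cells by a smaller amount. Colon GFP cells had 18.3, 31.0 and 29.3 CPM, against 41.7 and 50.2 CPM in colon KO and 45.5 and 27.2 CPM in colon WT. Ileum GFP cells had 11.9, 21.2 and 18.3 CPM, against 38.5 and 47.8 CPM in ileum KO and 32.1 and 26.6 CPM in ileum WT. Sorted libraries lay below the KO libraries in both tissues, and below the WT libraries in ileum only, since colon WT 2 fell within the sorted range. By edgeR Efna1 fell in GFP cells against KO by 0.81 in colon (log2, SE 0.27, adjusted p = 0.0238) and by 1.32 in ileum (SE 0.28, adjusted p = 0.00115), and against WT by 0.77 in ileum (SE 0.28, adjusted p = 0.0333). The colon value against WT was -0.47 (adjusted p = 0.174). The ileal call against WT was lost without ileum GFP 1 (adjusted p = 0.110), ileum GFP 3 (0.0584) or ileum WT 1 (0.159) and after removal of the GC and length trend (0.108). Against KO, the colon call was lost against KO without colon GFP 1 (0.0899) or colon KO 2 (0.145). Between KO and WT the log2 difference was 0.33 in colon and 0.59 in ileum (adjusted p = 0.895 and 0.380).

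Efnb1, a transmembrane ligand of EphB receptors that rises as epithelial cells differentiate, was far lower in sorted cells than in crypts. Colon GFP cells had 11.6, 12.6 and 28.2 CPM, against 129.9 and 128 CPM in colon KO and 118 and 103 CPM in colon WT. Ileum GFP cells had 26.1, 27.9 and 25.4 CPM, against 123 and 119.8 CPM in ileum KO and 119 and 102 CPM in ileum WT. No sorted library came near a crypt library. By edgeR Efnb1 fell in GFP cells against WT by 2.68 in colon (log2, SE 0.28, adjusted p = 7.26e-06, 6.40-fold lower) and by 2.06 in ileum (SE 0.27, adjusted p = 3.60e-05, 4.17-fold lower). Against KO it fell by 2.90 in colon and by 2.20 in ileum (adjusted p = 2.64e-06 and 1.52e-05). After removal of the GC and length trend the values against WT were -2.15 in colon and -1.37 in ileum.

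Colon GFP 3 stood apart from the other colon sorted libraries in Efnb1, at 28.2 CPM against 11.6 and 12.6 CPM, and in Ephb4. Its immune cell genes summed to 148 CPM over 14 genes, against 27.5 and 17.7 CPM in colon GFP 1 and 2, 251 to 614 CPM in ileum GFP cells and 578 to 2049 CPM in crypts. The list's part in the Efnb1 value was not tested. Without colon GFP 3, Efnb1 was lower in colon than in ileum GFP cells (-1.13, adjusted p = 0.00018, edgeR), whereas with it the difference was -0.62 (SE 0.26, adjusted p = 0.103). With all libraries it was also called with no filter on low counts (-0.61, adjusted p = 0.0215) and after removal of the GC and length trend (-0.85, adjusted p = 0.0113). Without colon GFP 3 the fall against WT was larger in colon than in ileum (difference -1.13, adjusted p = 0.0118), whereas with all libraries it was -0.62 (SE 0.39, adjusted p = 0.438).

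Efnb2, the other transmembrane ligand, was lower in colon sorted cells than in crypts, with a smaller change in ileum. Colon GFP cells had 45.6, 36.6 and 41.5 CPM, against 96.6 and 107 CPM in colon KO and 97.5 and 84.1 CPM in colon WT. Ileum GFP cells had 49.4, 58.3 and 49.4 CPM, against 81.3 and 62.3 CPM in ileum KO and 64.6 and 64.7 CPM in ileum WT. Sorted libraries lay below crypt libraries in both tissues, with a wide gap in colon and a narrow one in ileum. By edgeR Efnb2 fell in colon GFP cells by 1.14 against WT (log2, SE 0.16, adjusted p = 7.23e-05) and by 1.30 against KO (SE 0.16, adjusted p = 1.67e-05). In ileum it fell by 0.45 against KO (SE 0.16, adjusted p = 0.0254) and was at -0.30 against WT (SE 0.16, adjusted p = 0.123).

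The tissue difference in that Efnb2 effect was -0.83 (SE 0.23, adjusted p = 0.0763, edgeR), past the threshold in the DESeq2 Wald test (-0.84, adjusted p = 0.0155) and in edgeR without ileum GFP 1 (-0.87, adjusted p = 0.0466). The ileal call against KO was lost without ileum GFP 1 (adjusted p = 0.0510), ileum GFP 3 (0.0722) or ileum KO 1 (0.306) and with the GC and length trend removed (0.0612). Within libraries, Efnb1 gave 25.4, 34.4 and 68.0 counts per 100 Efnb2 counts in colon GFP cells, 134 and 119 in colon KO and 121 and 123 in colon WT. It gave 52.8, 47.9 and 51.4 in ileum GFP cells, 151 and 193 in ileum KO and 184 and 157 in ileum WT. The ratio of counts was thus below 100 in every sorted library and above 100 in every crypt library. Efnb2 has more exon length (6.855 against 3.452 kilobases), so a ratio of 100 does not mark equal levels. Per kilobase, Efnb1 exceeded Efnb2 in colon GFP 3 (8.18 against 6.06 CPM), ileum GFP 1 (7.55 against 7.20) and ileum GFP 3 (7.36 against 7.21). It was below Efnb2 in colon GFP 1, colon GFP 2 and ileum GFP 2.

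Counted over the set, colon GFP against colon WT called 3 of 7 members, all lower, where 45.9% of 15274 genes were called and 23.6% were called lower. Ileum GFP against ileum WT called 5 members, all lower, where 52.8% of genes were called and 28.1% lower. Colon GFP against colon KO called 5 (1 higher, 4 lower, background 48.8%) and ileum GFP against ileum KO called 6 (1 higher, 5 lower, background 55.5%). With backgrounds this high, the count of members called carries little by itself. The median log2 fold change of the members was -0.47 against WT in colon and -0.74 in ileum, beside 0.01 and -0.06 over all genes tested. A fall of this kind was not particular to the members. Medians in colon and ileum were -0.89 and -1.03 for the 8 epithelial genes and -0.49 and -1.42 for the tested relatives. They were -0.57 and -0.41 for the signalling partners described below, while goblet and Paneth genes rose (2.83 and 1.79). Contrasts with KO and with WT share the GFP libraries. For the difference of the GFP effect between colon and ileum, edgeR called 0 members (background 2.19%), 2 had an unadjusted p under 0.05 (17.3% of all genes did) and the DESeq2 Wald test called 1. The corresponding difference of the KO effect had 0 members called by edgeR (background 0.00694%), 0 at an unadjusted p under 0.05 (3.91% of all genes) and 0 by DESeq2, with values between -0.26 (Efna1, SE 0.36) and 0.43 (Ephb3, SE 0.40). The shares of all genes that DESeq2 called are not given here, so its member counts carry little by themselves.

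**Figure D4:**
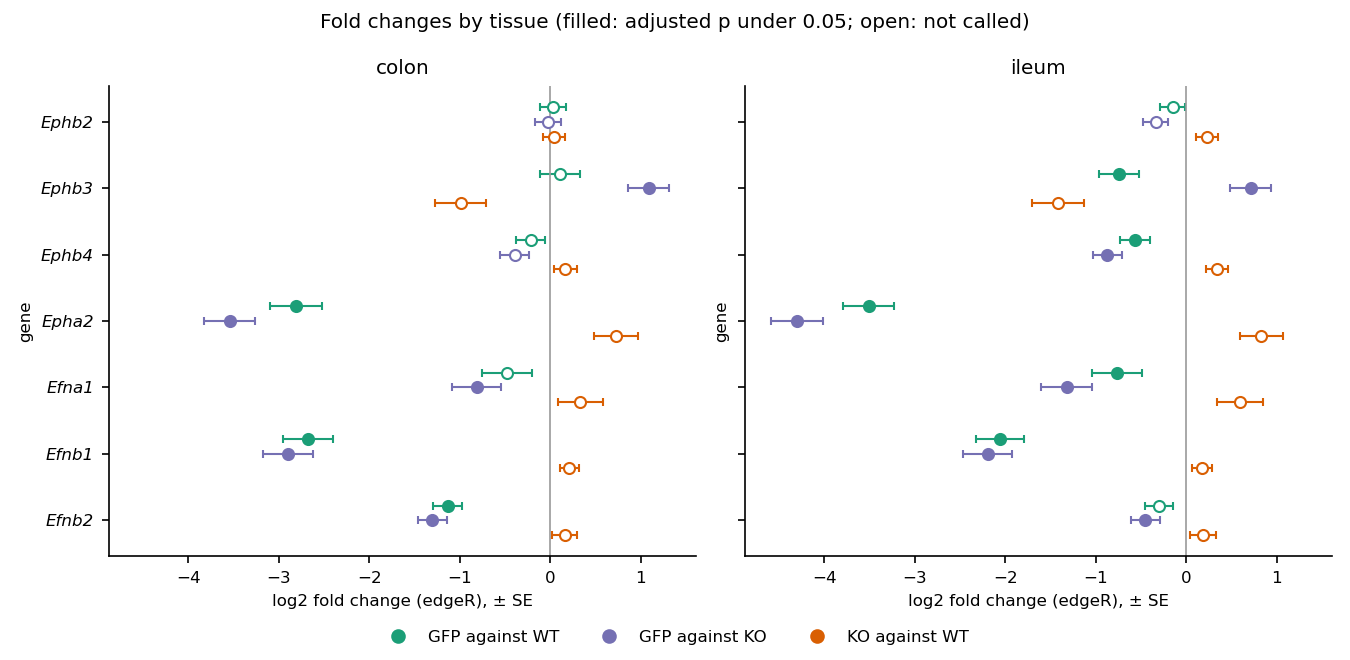
Log2 fold changes with SE for the 7 genes in colon (left) and ileum (right), for GFP cells against WT, GFP cells against KO and KO crypts against WT; filled points passed an adjusted p of 0.05 in edgeR. Epha2 and Efnb1 lie farthest to the left, Ephb2 lies near 0, and Ephb3 alone lies to the right against KO and to the left in KO against WT.

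Colon and ileum differed for 2 members in crypts, in calls close to the threshold. Epha2 averaged 23.7 ± 4.38 CPM in colon WT and 44.2 ± 14.5 CPM in ileum WT (SD, n = 2 each), a log2 difference of -0.89 (SE 0.24, adjusted p = 0.0451, edgeR). In KO crypts it averaged 39.3 ± 0.33 CPM in colon and 76.6 ± 12.7 CPM in ileum (SD, n = 2 each), a difference of -0.99 (SE 0.24, adjusted p = 0.0235, edgeR). Efnb2 ran the other way, with 90.8 ± 9.42 CPM in colon WT and 64.7 ± 0.09 CPM in ileum WT (log2 difference 0.50, SE 0.14, adjusted p = 0.0488, edgeR), and 102 ± 7.50 CPM in colon KO and 71.8 ± 13.5 CPM in ileum KO (0.47, SE 0.14, adjusted p = 0.0486). The background of genes called was 19.9% in WT and 25.7% in KO. In WT the Epha2 call was lost without colon WT 1 (adjusted p = 0.0888), colon WT 2 (0.222) or ileum WT 1 (0.0859), and the Efnb2 call without any 1 of the 4 WT libraries (0.0790 to 0.203). In KO the Epha2 call was lost without colon KO 1 (0.113), colon KO 2 (0.123) or ileum KO 2 (0.124), and the Efnb2 call without colon KO 1 (0.106), colon KO 2 (0.241) or ileum KO 2 (0.229). The Efnb2 calls were also lost after removal of the GC and length trend (0.0728 in WT and 0.0629 in KO) and with all 14 libraries in the fit (0.0886 and 0.0652), and the Epha2 call in WT with library sizes that leave out genes above 1% of counts (0.0574).

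In sorted cells the 1 member called between tissues was Ephb3, where 22.7% of genes were called. It averaged 43.1 ± 2.76 CPM in colon GFP and 27.9 ± 3.12 CPM in ileum GFP (SD, n = 3 each), a log2 difference of 0.62 (SE 0.20, adjusted p = 0.0375, edgeR), and every colon library exceeded every ileal one. The call was lost without colon GFP 1 (adjusted p = 0.0546), colon GFP 2 (0.110), colon GFP 3 (0.0659), ileum GFP 1 (0.0990) or ileum GFP 3 (0.0831), and with the GC and length trend removed (0.0965). Epha2, which differed between tissues in crypts, was at -0.20 (SE 0.31, adjusted p = 0.674) in sorted cells.

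**Figure D5:**
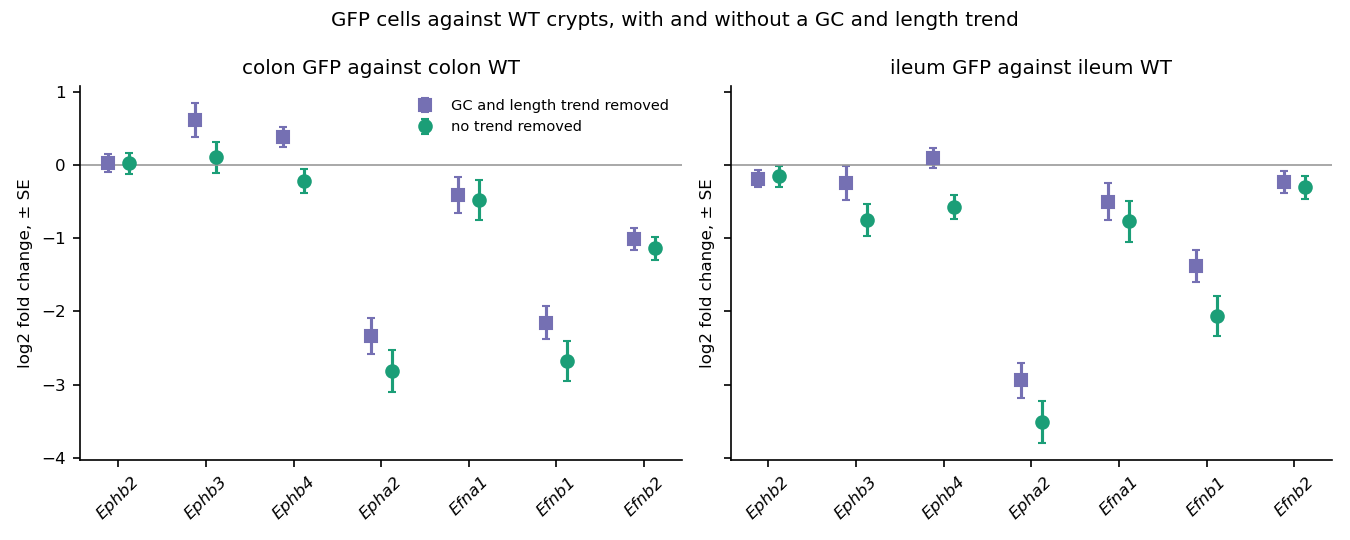
Log2 fold changes with SE of GFP cells against WT crypts in colon (left) and ileum (right), after removal of a GC and length trend (squares) and with it kept (circles). Ephb4 moved across 0 in both tissues, while Epha2 and Efnb1 stayed below -1 either way.

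Among the other 15 family members, 8 had enough counts to be tested with sorted cells and 7 in the crypt fit. Epha1 had 13.9 CPM in colon GFP cells, 46.4 in colon KO and 37.3 in colon WT, and 12.8, 75.7 and 61.2 CPM in the same ileal groups. By edgeR it fell in GFP cells against WT by 1.43 in colon and by 2.27 in ileum on the log2 scale, and it was lower in colon than in ileum in WT crypts (-0.70, adjusted p = 0.0124), as Epha2 was. Ephb6, a receptor without kinase activity, was a colon crypt transcript: it had 0.51 CPM in colon GFP cells, 14.5 CPM in colon KO and 12.02 CPM in colon WT, against 0.04, 0.27 and 0.19 CPM in the same ileal groups. Its log2 difference between colon WT and ileum WT was 5.87 (SE 0.41, adjusted p = 0.000203, edgeR). Against WT, 3 of the 8 tested relatives fell in colon GFP cells (Epha1, Ephb6 and Efna3) and 3 in ileum (Epha1, Efna3 and Efna4), and 0 rose. Of all genes, 23.6% fell and 22.3% rose in colon, and 28.1% fell and 24.6% rose in ileum. Efna3 rested on few counts in sorted cells, 9 over the colon GFP libraries and 13 over the ileum GFP libraries.

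Epha4 stood at 6.79 to 18.8 CPM over the group means and was not called in GFP cells against either crypt group. Epha7 was higher in colon GFP cells than in colon KO (2.90 against 0.39 CPM, log2 difference 2.85, adjusted p = 0.00543, edgeR). The KO value rested on 11 counts over the colon KO libraries. Against colon WT the Epha7 difference was not called (1.46, adjusted p = 0.0824, edgeR). Between KO and WT, edgeR called 0 of the 7 tested relatives in colon, in ileum and over both tissues (background 0.153%, 1.22% and 2.47%). The remaining relatives (Efna2, Efna5, Efnb3, Epha3, Epha6, Epha8, Epha10 and Ephb1) averaged under 1 CPM in every group. Epha5 reached 1.37 CPM in colon GFP cells and 0.155 CPM or less in every other group.

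Downstream of the receptors, 37 of 38 signalling partners could be tested. Between KO and WT edgeR called 0 of them in colon, 0 in ileum and 1 over both tissues, Pard6b, a polarity protein of the family that ephrin-B1 binds in frog embryos (42.0 CPM in KO, 30.2 CPM in WT, log2 difference 0.49, adjusted p = 0.0194). The background there was 0.153% in colon, 1.22% in ileum and 2.47% over both tissues. In GFP cells against WT, 4 rose and 16 fell in colon, and 7 rose and 14 fell in ileum, where 22.3% of all genes rose and 23.6% fell in colon and 24.6% rose and 28.1% fell in ileum. Src, a kinase recruited by ephrins, had 21.3 CPM in colon GFP cells against 119 CPM in colon WT, and 17.9 CPM in ileum GFP cells against 112 CPM in ileum WT. Kalrn, a guanine nucleotide exchange factor, had 6.23 against 38.2 CPM in colon and 5.33 against 45.3 CPM in ileum. Adam10, the protease that cleaves ephrins, had 65.0 against 164 CPM in colon (adjusted p = 0.000186, edgeR) and 87.9 against 203 CPM in ileum (adjusted p = 0.000307). Those that rose in GFP cells in both tissues were Nck1, Pak1, Rac1 and Sdcbp, of which Rac1 had 386 against 265 CPM in colon and 382 against 248 CPM in ileum.

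Wnt and stem cell genes of the crypt base, with which EphB receptors are usually grouped, moved in both directions. Of 18 tested, 4 rose and 2 fell in colon GFP cells against WT, and 5 rose and 1 fell in ileum. Of all genes, 22.3% rose and 23.6% fell in colon, and 24.6% rose and 28.1% fell in ileum. The rises in the list were thus near the background, and the falls were below it. Cd44, a Wnt target, had 181 CPM in colon GFP cells and 68.2 CPM in colon WT (log2 difference 1.41, adjusted p = 0.0409, edgeR), and 51.6 against 62.0 CPM in ileum (-0.27). Znrf3, a feedback inhibitor of Wnt receptors, was higher in GFP cells in both tissues (0.95 in colon and 1.67 in ileum, adjusted p = 0.00885 and 0.000138). Over both tissues 1 of the 18 was called between KO and WT, where 2.47% of all genes were called. It was Smoc2, at 99.9 CPM in KO and 68.2 CPM in WT (0.57, adjusted p = 0.00880, edgeR), which was also called in ileum alone (adjusted p = 0.0429). The list as a whole ran the other way in ileum, where it summed to 1568 and 1139 CPM in KO and to 2030 and 2164 CPM in WT, and its median log2 fold change was -0.15 beside 0.01 over all genes. In colon it summed to 891 and 915 CPM in KO and to 853 and 910 CPM in WT, with a median of 0.07.

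Likeness of pattern was measured over the 14 libraries as the root-mean-square difference of log2(CPM + 1), each gene centred on its own mean, among 8697 genes with a mean of at least 10 CPM. The measure depends on how much a gene varies at all, and the libraries share their scaling. The nearest genes were Ndst2 (0.10), Ppp2r2d (0.11) and Nacc1 (0.11) for Ephb2, whose own SD was 0.13. For Ephb3 (own SD 0.54) they were Prps1 (0.29), Ctnnbip1 (0.34) and Gorasp1 (0.35), and for Ephb4 (0.32) Cpt2, Coq6 and Irf2bp2 (0.13 each). Epha2, with an own SD of 1.69, was closest to H2-Q1 (0.27), Slc9a3r1 (0.29) and Pdzd3 (0.32). Efnb1 (own SD 1.26) had Ttc22 (0.26) and Plac8 (0.27) among its nearest genes. Efna1 (0.56) was closest to Mad2l1bp (0.20), Abca3 (0.21) and Flii (0.21), and Efnb2 (0.46) to Elmsan1 (0.15), Acap2 (0.15) and Lima1 (0.16).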

How the data were processed

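RNA was sequenced from 14 mouse libraries, and the authors deposited raw counts per Ensembl gene, 1 table per library, not normalized. Per the submitters' processing notes, TopHat 1.4.1, HTSeq and mm9 were used; no annotation release or strand setting is named there. Lines that name no gene (42.4 to 68.6% of all lines' counts) entered neither library sizes nor tests. Of 36536 genes, 31021 took their symbol, matched on Ensembl ID, out of GENCODE M21, an annotation of another build, also used for exon length and GC content. Promoters are from RefSeq, GRCm38.p6.

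In R 4.3.3, edgeR 4.0.16 tested each gene by quasi-likelihood F-test (TMM, filterByExpr by group, robust fit), adjusted by Benjamini-Hochberg over all genes. The threshold for a call was 0.05. KO, WT and their tissue contrasts used the 8 crypt libraries (14415 genes), and contrasts with GFP used all 14 (15274 genes, 1 shared estimate of the spread). Intervals use the fitted SE and degrees of freedom. Replicate libraries differed by more than counting noise, and counting error is the smallest error that depth allows. Scripts were tested on simulated data.

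Alternatives were the Wald test of DESeq2 1.42.0, its size factors within edgeR, a fit of every gene with a count, library sizes that leave out genes above 1% of counts, a replicate block, other sets of libraries and leaving out each library. A fit with a GC and length trend removed per library, and a block by genotype and number, were added after seeing the data. The named genes are the 7 members in every comparison, relatives at 1 CPM or more in a group, up to 4 called and 4 abundant genes per list, and the 3 genes nearest in pattern to each member, of which 1 is not reported here. Members and lists were chosen with earlier results of these data known.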

Additional observations from a re-analysis of the deposited data

How the results depend on the processing

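Over 1085 alternative values for the 84 log2 fold changes of the members (12 comparisons), 955 kept their direction and side of the threshold, 55 kept the direction and lost the call, 34 gained a call and 41 reversed; 476 of the values left out 1 library. The falls of Epha2 and Efnb1 in GFP cells against WT and KO and of Efnb2 in colon GFP cells kept their calls under every alternative run. The cause of the changes below was not tested.

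Members called in ileum KO against WT numbered 0 as fitted, 2 with the DESeq2 Wald test, 1 with all 14 libraries and 0 to 2 when single libraries were left out. Over both tissues they numbered 1, against 2 with DESeq2 size factors, 2 with the Wald test, 2 after removal of the GC and length trend and 0 to 2 without single libraries. For colon WT against ileum WT they numbered 2, against 1 with library sizes without genes above 1% of counts, 1 with all 14 libraries, 1 after that removal and 0 to 1 without single libraries. For colon KO against ileum KO they numbered 2, against 1 with all 14 libraries, 1 with the trend removed and 0 to 2 without single libraries. Colon GFP against colon WT had 3, against 5 with the trend removed and 3 to 4 without single libraries. Ileum GFP against ileum WT had 5, against 3 with only the groups compared, 2 with the trend removed and 3 to 5 without single libraries. Colon GFP against ileum GFP had 1, against 2 with library sizes without genes above 1% of counts, 3 with no filter and 0 to 2 without single libraries. The difference of the GFP effect between tissues had 0, against 1 with the Wald test and 0 to 1 without single libraries. Contrasts of GFP with KO had 5 in colon (4 to 6 without single libraries) and 6 in ileum (4 to 5). Member counts here and below stand without the share of all genes called under the same setting. Counts of all genes called also moved between settings, with ranges for most comparisons in the last paragraph. A change in a member count is therefore no result about the members by itself.

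With the replicate number as a replicate block, members called numbered 0 for colon WT against ileum WT, 1 for colon KO against ileum KO and 2 for colon GFP against ileum GFP, and with a replicate block by genotype and number 1 and 1 for the crypt contrasts. The replicate block ended the calls of Epha2 (adjusted p = 0.0568) and Efnb2 (0.0555) in WT and of Efnb2 in KO (0.0511), and the block by genotype and number those of Efnb2 (0.0555 in WT and 0.0516 in KO). The replicate block also gave calls for Efnb1 in colon GFP against ileum GFP (-0.71, adjusted p = 0.0391), for Ephb4 in colon GFP against KO (-0.46, 0.0354) and for Ephb2 in ileum GFP against KO (-0.37, 0.0488). Deviations of same-numbered libraries correlated at 0.36 between colon KO and ileum KO and at 0.32 between colon WT and ileum WT, at -0.01 between colon KO and colon WT, at 0.05 between ileum KO and ileum WT, and at 0.00, -0.12 and 0.09 between colon and ileum GFP libraries 1 to 3. The labels do not say what the numbers share, so libraries were not paired.

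These values reversed their direction. Ephb2 in colon WT against ileum WT was -0.00 as fitted, 0.0018 with DESeq2 size factors, 0.033 with library sizes without genes above 1% of counts, 0.011 with no filter, 0.0019 with the Wald test and 0.0013 with the block by genotype and number. Ephb2 in colon GFP against colon WT was -0.017 with those library sizes, -0.045 with no filter and -0.0021 with the replicate block. With the trend removed, Ephb4 was -0.050 and Efnb1 -0.053 in colon WT against ileum WT, and Ephb4 was 0.38 in colon GFP against colon WT, 0.095 in ileum GFP against ileum WT and 0.19 in colon GFP against colon KO. The tissue difference of the KO effect for Efnb2 was 0.016 with all 14 libraries.

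Without single libraries, that tissue difference ran from -0.051 to 0.79 for Ephb3, -0.48 to 0.18 for Epha2, -0.59 to 0.15 for Efna1, -0.069 to 0.13 for Efnb1 and -0.21 to 0.17 for Efnb2. Colon WT against ileum WT ran from -0.085 to 0.094 for Ephb2, -0.57 to 0.26 for Ephb3, -0.062 to 0.16 for Ephb4, -0.068 to 0.64 for Efna1 and -0.079 to 0.12 for Efnb1. Ranges across 0 were also found for Ephb2 in colon KO against WT (-0.031 to 0.12), Efnb2 in ileum KO against WT (-0.014 to 0.37), Efna1 in colon KO against ileum KO (-0.093 to 0.22), Ephb2 and Ephb3 in colon GFP against WT (-0.055 to 0.080 and -0.12 to 0.34), Epha2 in colon GFP against ileum GFP (-0.41 to 0.12) and Efna1 in the tissue difference of the GFP effect (-0.036 to 0.71).

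The count of all genes called moved by over 1.5 times too. It was 22 in colon KO against WT (20 to 159 over alternatives, 0 to 14 without single libraries), 176 in ileum KO against WT (179 to 496, 11 to 1403), 356 over both tissues (318 to 948, 19 to 491), 1 for the difference of the KO effect (1 to 58, 0 to 335), 2872 and 3699 for colon against ileum in WT and KO (1836 to 3230 and 2394 to 4058, 1289 to 3544 and 1603 to 2044), 3474 in GFP (2147 to 3943, 2416 to 3961), 335 for the difference of the GFP effect (155 to 1093, 137 to 672) and 7007 in colon GFP against WT (6617 to 7256, 4184 to 6995). With 2 or 3 libraries per group, a member whose WT libraries differ, as Ephb3 in ileum, cannot be resolved further.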
